A study of Mus musculus with 8 samples.

Results

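The S100 genes encode small calcium-binding proteins, and most of them lie on mouse chromosome 3 on the same side of Lmna, the gene deleted in this study. The 8 genes described here, S100a1, S100a4, S100a6, S100a8, S100a9, S100a10, S100a11 and S100a13, were taken by symbol from the deposited table of 23084 genes, and each symbol matched 1 row. RNA was sequenced from CD11b+Ly6C+ (monocytic) and CD11b+Ly6G+ (granulocytic) myeloid cells sorted from spleens of C57BL/6 mice aged 6 to 8 weeks. The wt and LmnaMyeKO mice gave 2 samples of each subset, 8 samples in 4 groups. In LmnaMyeKO mice, Cre expressed from the Lyz2 locus (LysM-Cre) deletes a floxed Lmna in myeloid cells, so deletion depends on Lyz2 activity in each cell and is not limited to either subset. The labels do not give the Lmna and Cre alleles of the wt mice or say whether animals were pooled. The paper's account of the RNA sequencing does not say whether these mice carried tumors. Many of its other experiments used tumor-bearing mice, so the tumor state behind the values below is not known here.

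The value used for each gene is the authors' mean signal, a single average over samples of counts divided by size factors. The samples in that average are not named in the sources used here. The deposited table is titled as 1 comparison of wt with knockout cells, so the average may cover only part of the 8 samples, and the cell subset or subsets behind it are not known. The other numeric columns of the table hold the authors' own comparison of genotypes and were not used. The values below are therefore levels, with no replicate spread, no test and no difference between wt and LmnaMyeKO cells. How deeply each sample was sequenced cannot be read from it.

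An S100 protein folds around 2 EF-hand calcium-binding loops, usually pairs with a second S100 chain and binds its targets after calcium has changed its shape. S100A8 and S100A9 form the heterodimer calprotectin, which is stored in the cytosol of neutrophils and monocytes, binds zinc and manganese, and acts as an alarm signal when released. Both are widely used as markers of the granulocytic lineage. S100A10 is the exception in the family, because its loops no longer bind calcium and it is held in a complex with annexin A2.

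S100a9 had the highest mean signal of all 23084 genes, 725556, and S100a8 ranked 3rd, at 413320. Only mt-Co1, a mitochondrial gene, lay between them, at 496288. S100a8 and S100a9 together held 4.51% of the summed signal of the table, and the other 6 genes held 0.231%. To compare genes of different length, each mean signal was divided by the length of the gene's annotated exons and scaled so that all genes summed to 1000000 units. This value is termed the level below. On this scale S100a9 ranked 1st of 23004 genes with an annotated length, at 133153 units, and S100a8 ranked 2nd, at 57053 units. The median gene had a level of 1.81 units.

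**Figure D1:**
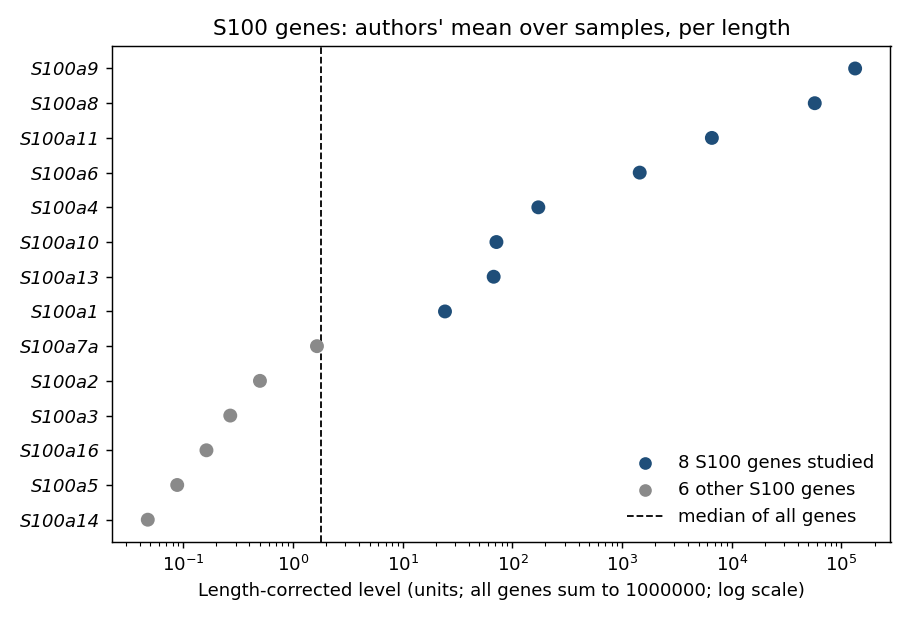
Length-corrected level (x axis, units, log scale) of the 8 S100 genes studied and the 6 other S100 genes of the table, 1 point a gene, with no error because only the authors' mean over samples was used. The 8 genes run from 24.2 for S100a1 to 133153 for S100a9, all to the right of the dashed median of all genes, and the other 6 lie to its left.

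The level of S100a9 was 2.33 times that of S100a8, its partner in calprotectin. Without the division by length the ratio was 1.76, and with coding length alone, where the level of S100a9 was 80392 and that of S100a8 58145 units, it was 1.38. S100a9 was thus the higher under each length, while the size of its lead rested on the length used (522 bases of annotated exon, against 694 for S100a8). S100a9 (ENSMUSG00000056071.12) lies on chromosome 3 (mm10, 90692632 to 90695721, minus strand). S100a8 (ENSMUSG00000056054.9) lies at 90668978 to 90670035 on the plus strand. The genes are 22.6 kb apart on opposite strands.

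S100a11 and S100a6 formed the next step. S100a11 (ENSMUSG00000027907.4, chromosome 3, 93520488 to 93526287, plus strand), whose product binds annexin A1, had a mean signal of 35091 and a level of 6578 units, rank 17. S100a8 exceeded it 8.67 times. S100a6 (ENSMUSG00000001025.8, chromosome 3, 90612882 to 90624181, plus strand) encodes calcyclin and had a mean signal of 20636. Its level was 1446 units, rank 58, so that S100a11 stood 4.55 times higher, and 1.54 times with coding length. S100a6 is the gene whose level moved most with the length used, because its 4 annotated transcripts cover 1367 bases of exon and its coding sequence 267. Divided by coding length instead, its level was 2903 units, which left it in the 4th place among the 8.

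Below these 4 genes the level dropped 8.40 times, to S100a4, and by more with the other lengths, up to 22.3 times with coding length. S100a4 (ENSMUSG00000001020.8, chromosome 3, 90603771 to 90606045, plus strand), known for binding nonmuscle myosin IIA and for its part in cell motility, had a mean signal of 1049 and a level of 172 units, rank 618. S100a10 (ENSMUSG00000041959.14, chromosome 3, 93555080 to 93564643, plus strand) followed with a mean signal of 903 and a level of 71.4 units, rank 1523. S100a13 (ENSMUSG00000042312.9, chromosome 3, 90514435 to 90524581, plus strand), which takes part in the release of FGF1 and interleukin 1 alpha without a signal peptide, had a mean signal of 503 and a level of 67.4 units, rank 1598. S100a1 (ENSMUSG00000044080.9, chromosome 3, 90511034 to 90514392, minus strand), best known from heart and skeletal muscle, was the lowest of the 8, with a mean signal of 176 and a level of 24.2 units, rank 3986.

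S100a9 exceeded S100a1 5491 times in level (3436 times with coding length), so the 8 genes spanned more than 3 powers of 10. S100a10 and S100a13 differed by 1.06 times with exon length and by 2.96 times with coding length, where they had 117 and 39.4 units. Neighbours in this order cannot be separated statistically, because no spread between samples was used. The order of all 8 was the same under each length tried. Of the 8 genes, 5 were among the 1150 genes that make up the top 5% by level. All 8 were above the median gene, S100a1 by 13.4 times (3.70 times without length, 3.34 times with coding length). S100a9 and S100a8 together accounted for 95.8% of the summed level of the 8 genes and for 19.0% of the summed level of all genes. The share of all genes rested on the division by exon length. Without it, S100a9 and S100a8 held 4.51% of the summed signal.

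**Figure D2:**
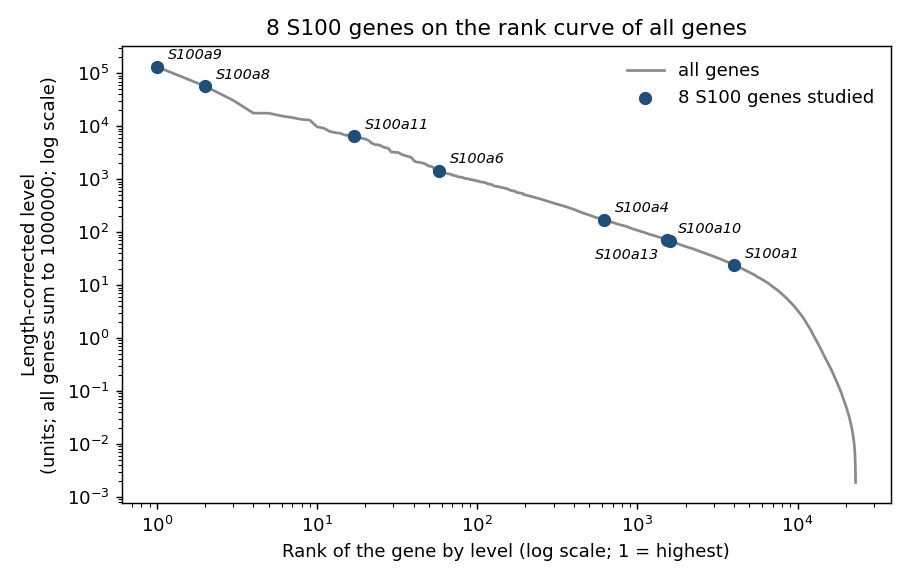
Length-corrected level (y axis, units, log scale) against the rank of each gene (x axis, log scale, 1 = highest) for all genes with an annotated length (line) and the 8 S100 genes studied (points). S100a9 and S100a8 occupy ranks 1 and 2, S100a11 and S100a6 ranks 17 and 58, and the other 4 lie between ranks 618 and 3986.

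The remaining S100 genes with a row had lower levels than any of the 8. The 8 were chosen with earlier results of these data known. This split and their place above the median gene may therefore follow from that choice. Of 10 further S100 genes looked up, 6 had a row, and all 6 were below the median gene, also with the other lengths and without length. Their median level was 0.215 units. S100a7a was the highest of them, with a mean signal of 23.7, and its level ranked 11719 of 23004, just under the median gene. Without length it lay further below, at 23.7 against a median of 47.5. With coding length it had 2.75 units against a median of 7.01. S100a14 was the lowest by level, at rank 20209. S100a1 exceeded S100a7a 14.7 times in level, and 7.41 times without length. S100a3 had a mean signal of 15.8, S100a16 of 2.74 and S100a2 of 1.64. S100a14, mainly an epithelial gene, and S100a5 were under 1, at 0.852 and 0.396, against a lowest value of 0.185 anywhere in the table. S100a7l2, S100b, S100g and S100z had no row and were not analysed here. S100pbp, which encodes an S100P-binding protein and is no S100 gene itself, had a mean signal of 658.

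The position of the 8 genes was then set beside that of Lmna, the gene deleted in LmnaMyeKO mice. Lmna (ENSMUSG00000028063.15) lies on the same chromosome (88480147 to 88509956, minus strand) and had a mean signal of 79.5 and a level of 1.30 units over the averaged samples. All 8 S100 genes lie on the same side of it. The first block holds S100a1, S100a13, S100a4, S100a6, S100a8 and S100a9, spans 185 kb and begins 2001 kb from Lmna. The second block holds S100a11 and S100a10, spans 44.2 kb and begins 5011 kb from Lmna. S100a1 and S100a13 are divergent neighbours with 42 bases between them, and the level of S100a13 was 2.78 times that of S100a1, or 1.68 times with coding length. S100a11 and S100a10 are 28.8 kb apart on the same strand, and S100a11 was 92.1 times higher, or 38.5 times with coding length.

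High and low genes lay side by side within the first block. Of its 13 annotated protein-coding genes 12 had a row, and the 6 that are not among the 8 were all S100 genes, with mean signals from 0.396 to 23.7. S100a14, S100a16, S100a3 and S100a2 lie in a row between S100a13 and S100a4. S100a5, at 0.396, lies between S100a4, at 1049, and S100a6, at 20636. S100a7a, at 23.7, lies between S100a6 and S100a8. The 2791 kb between the blocks hold the genes of the epidermal differentiation complex, which build the outer layer of the skin and include the fused S100 genes such as Flg and Tchh. Of the 60 protein-coding genes annotated there, 4 had a row (Pglyrp4, Gm9774, Tchh and Lor), with mean signals from 0.455 to 59.5. Of the 7 fused S100 genes looked up, Tchh alone had a row, at 11.5.

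**Figure D3:**
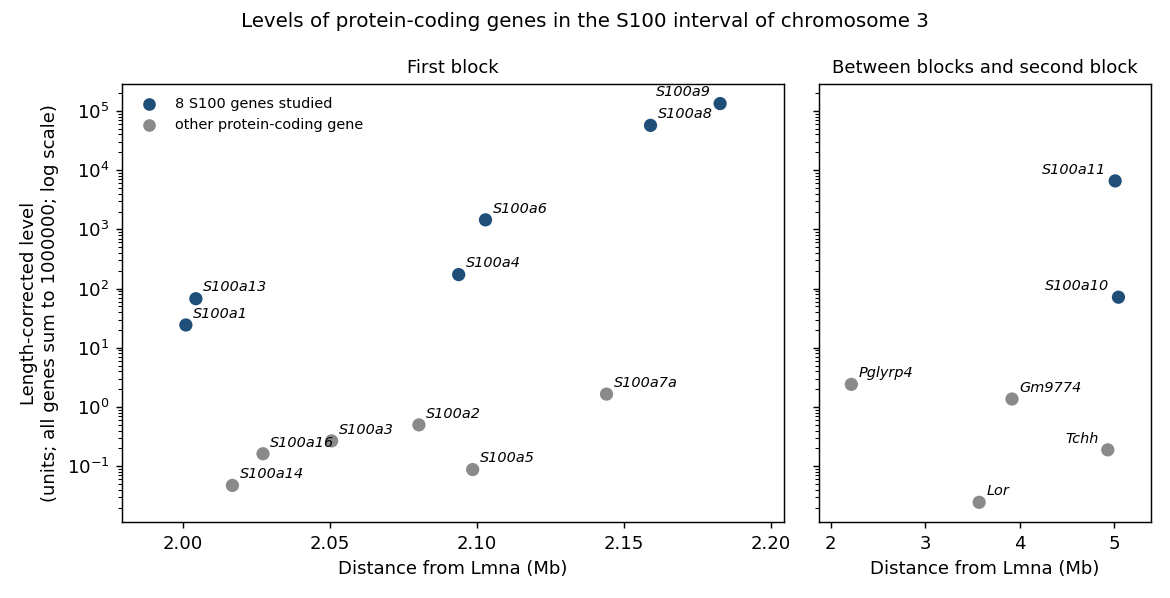
Length-corrected level (y axis, units, log scale) of the protein-coding genes with a row in the S100 interval of chromosome 3, against their distance from the nearest end of Lmna (x axis, Mb), with the first block on the left and the rest of the interval on the right. The 8 genes studied lie from 24.2 to 133153 units, above every other protein-coding gene shown.

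Reads of S100a11 can be shared with copies of the gene. Spliced transcripts of the 8 genes were aligned to all GENCODE M21 transcripts, and a match of at least 100 bases at 85% identity or more was kept. S100a11 matched 7 processed pseudogenes, of which 5 had a row in the table, and S100a4 matched Gm42674, a transcript that runs through S100a4 and shares 302 bases of its exons. The other 6 genes had no such match. The closest copy of S100a11 is Gm12854, at 116067268 to 116067564 of chromosome 4 (mm10, plus strand). The coding sequence of S100a11 with its stop codon and the whole of Gm12854 are shown to make visible how few bases tell a read of one from a read of the other, with the differing bases in capitals (GENCODE M21 transcripts, mm10).
S100a11: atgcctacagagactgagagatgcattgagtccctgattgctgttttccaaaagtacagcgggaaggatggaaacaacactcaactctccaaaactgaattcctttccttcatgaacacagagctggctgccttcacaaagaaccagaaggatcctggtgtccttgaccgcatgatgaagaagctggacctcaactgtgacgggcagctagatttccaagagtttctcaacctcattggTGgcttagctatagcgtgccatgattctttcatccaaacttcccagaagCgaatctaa
Gm12854: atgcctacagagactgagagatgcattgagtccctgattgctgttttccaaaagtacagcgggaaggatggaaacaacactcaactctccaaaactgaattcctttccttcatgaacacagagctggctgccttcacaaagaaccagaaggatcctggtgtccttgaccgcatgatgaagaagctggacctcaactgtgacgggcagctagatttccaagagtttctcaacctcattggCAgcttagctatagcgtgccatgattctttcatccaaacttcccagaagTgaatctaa

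Counted from 1 at the first base of the start codon of S100a11, the differences are T240C, G241A and C289T, with the S100a11 base first. The first 239 of the 297 bases are identical. Gm12854 had a mean signal of 64.3 and Gm7665, the next closest at 98.7% identity, of 52.7. The 5 copies with a row summed to 123, which is 0.352% of the S100a11 signal. RSEM divides reads that fit several transcripts by estimation, so the values of the copies are uncertain, while the level of S100a11 would change little if all of their signal were its own. Reads of S100a4 and Gm42674 cannot be told apart over their shared bases, and Gm42674 had no row of its own.

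The sequence before the start sites was read for 7 of the 8 genes, as S100a10 has no entry in the RefSeq promoter table (GRCm38.p6, the assembly of mm10). Letters of 5 motifs were searched on both strands within 250 bases before the start. The letters TATAAA, the TATA box, were found in the windows of S100a8 and S100a4, 2 of 7 genes, against 12.4% of all 32851 windows of that length. They begin 30 bases before the RefSeq start of S100a8 and 31 bases before that of S100a4. The letters TTNNGCAA, part of the sequence bound by C/EBP factors, were found in the window of S100a9, 236 bases before its start, and in no other of the 7, against 9.56% of all windows. The letters CCAAT, the CCAAT box, were found in the window of S100a6 alone, against 33.8% of all windows. The letters GAGGAAG, of the kind bound by PU.1, were found in that of S100a8 alone, against 10.6%. The letters TGANTCA, bound by AP-1, were found at 2 positions before S100a11 and in no other of the 7, against 6.75%. None of the 5 was found in the windows of S100a1 or S100a13, which overlap each other. RefSeq and GENCODE M21 starts differ. The windows of S100a1, S100a6, S100a8 and S100a11 therefore lie partly inside the gene as GENCODE M21 annotates it. These are matches of letters only, and binding was not measured here. The window of S100a9, the gene with the highest level, and that of S100a4 are shown with the TATA box or C/EBP letters in capitals. For S100a8 the last 30 bases are shown, marked in the same way. These bases, with the TATA letters, lie inside S100a8 as annotated in GENCODE M21, where a transcript begins further upstream.
S100a9, chr3:90695722-90695971, minus strand: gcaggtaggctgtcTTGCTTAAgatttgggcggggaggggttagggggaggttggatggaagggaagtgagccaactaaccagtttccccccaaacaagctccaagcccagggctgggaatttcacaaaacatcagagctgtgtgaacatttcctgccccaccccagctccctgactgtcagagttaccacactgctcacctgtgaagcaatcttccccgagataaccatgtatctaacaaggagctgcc
S100a8, chr3:90669041-90669070, plus strand: TATAAAagcagctgacacttagcctcacat
S100a4, chr3:90603520-90603769, plus strand: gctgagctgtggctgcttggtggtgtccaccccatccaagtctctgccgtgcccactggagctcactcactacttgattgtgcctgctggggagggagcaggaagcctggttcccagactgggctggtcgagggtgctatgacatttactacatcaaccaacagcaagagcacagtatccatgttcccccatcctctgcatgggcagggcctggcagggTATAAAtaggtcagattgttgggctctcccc

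Binding partners and receptors of S100 proteins were looked up as a list of 16 genes, and all 16 had a row. Among the annexins, Anxa1, the partner of S100A11, had a level of 1767 units, and S100a11 was 3.72 times higher. Without the division by length Anxa1 was the higher of the pair, with a mean signal of 53709 against 35091. Anxa2, the partner of S100A10, had 697 units, 9.76 times the level of S100a10, and 30.04 times its mean signal without length. Anxa11, Anxa5 and Anxa6 had 298, 159 and 100.2 units. Ahnak, a very large protein that joins the S100A10 and annexin A2 complex, had a level of 21.3 units, and Myh9, the myosin IIA heavy chain bound by S100A4, had 601. Cacybp, the calcyclin-binding protein, had 28.9 units, and S100a6 exceeded it 49.95 times in level, with 28.6 to 76.6 times under the alternatives.

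Like every other gene with a level, the receptors described for calprotectin and other released S100 proteins were lower than S100a8 and S100a9. Emb (embigin) had a level of 133 units, Bsg (basigin) 108, Tlr4 47.7, Ager (the receptor RAGE) 12.6 and Cd36 10.8. S100a9 exceeded Tlr4 2789 times in level and 262 times in mean signal. Of the cargo and partners of S100A13, Il1a had a level of 6.35 units and Fgf1 of 2.28, and Syt1 was the lowest of the 16, with a mean signal of 0.275.

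The labelled cell types were checked with 8 lists of marker genes, and all 46 markers had a row. The 12 genes of neutrophils and their precursors had a median level of 2625 units, and the 7 monocyte genes a median of 55.3, so the neutrophil median was 47.4 times higher. This ratio moved with the length, to 20.4 times with coding length and 11.1 times without length. The lists overlapped, the neutrophil genes running from 100.1 to 17634 units and the monocyte genes from 15.0 to 1031. Ngp and Retnlg, made by maturing and mature neutrophils, had 17634 and 15662 units, and Ly6g had 799. Mpo, Elane and Prtn3, granule genes of early precursors, had 114, 165 and 100.1 units. Ly6c2 and Csf1r, markers of monocytes, had 504 and 368 units, Ccr2 had 35.5, and Itgam, which encodes CD11b and is shared with neutrophils, was the highest of the monocyte list at 1031. S100a9 exceeded Ngp 7.55 times and Ly6c2 264 times in level, and 3.23 and 50.3 times in mean signal. The averaged samples therefore carried abundant neutrophil transcripts beside S100a8 and S100a9. Whether these came from Ly6G+ samples within the average or from the Ly6C+ samples cannot be told apart, and in sorted bulk cells the number of cells of a type and the RNA per cell cannot be told apart either.

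Markers of other spleen cells were also detected. The 5 B cell genes ran from 49.4 to 389 units, with Cd79a the highest, and the 5 macrophage genes from 57.7 to 930, with C1qb the highest. The 4 erythroid genes ran from 4.21 to 1070 units, led by the globin gene Hbb-bs. The T and NK cell genes did not exceed 49.7 units, the platelet genes 9.71 and the dendritic cell genes 3.28. None of the 46 markers reached the level of S100a8 or S100a9, which ranked above all other genes. The part of these cells in the S100 levels was not tested.

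**Figure D4:**
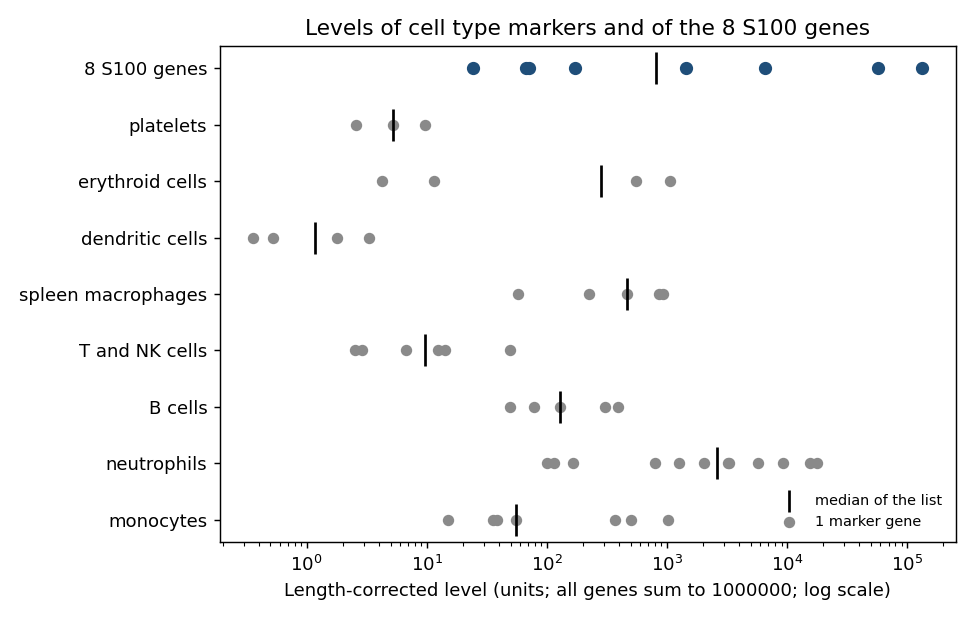
Length-corrected level (x axis, units, log scale) of each marker gene (grey points) in 8 lists of cell type markers, and of the 8 S100 genes studied (blue points), with the median of each list as a vertical tick. The neutrophil list has the highest median among the markers, 2625, and S100a8 and S100a9 lie to the right of every marker.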

How the data were processed

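RNA from 8 samples in 4 groups was sequenced. Groups follow the sample titles, because the cell-marker label is CD11b+Ly6C+ throughout. According to the methods and the submitters' processing notes, the authors trimmed reads with Cutadapt (version 1.14), mapped them to mm10 with STAR (version 2.5.2b), quantified genes with RSEM (version 1.3.0) and GENCODE M12, and tested them with DESeq2 (version 1.20.0). The deposited table gives 1 mean signal per gene, which the authors averaged from size-factor-normalized counts. Its other 6 numeric columns hold the authors' comparison (log2 fold change, standard error, statistic, p-value, adjusted p-value, fold change) and were not used. Values per sample, and so depth and replicate error, were not analysed here, and the count test set out in the design was not run.

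Of 23084 genes, 23004 were matched by identifier to GENCODE M21 (also mm10, but newer than M12), and 80 were not. Mean signal was divided by the union of annotated exons and scaled to a sum of 1000000 units over matched genes. Transcripts were aligned with blastn 2.17.0, and Python 3.11.15 was used. The scaling, ranks and motif search were tested on simulated data. Genes named are the 8 S100 genes, the other S100 genes, listed partners, listed cell type markers, Lmna, genes inside the chromosome 3 interval, and overlapping or closely matching genes. mt-Co1 was named after its value was seen. The 8 genes and all lists were chosen with earlier results of these data known. Alternatives were other lengths, no length, and other sets of ranked genes.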

Additional observations from a re-analysis of the deposited data

How the results depend on the processing

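The share of the summed level of the 8 genes held by S100a8 and S100a9 was 95.8% with exon length, 95.7% with the longest transcript, 95.1% without length and 94.7% with coding length, an alternative chosen after seeing the data. The number of the 8 genes in the top 5% was 5 as reported, 5 among 14286 genes with a mean signal of at least 10, 5 among 15697 protein-coding genes, 6 with the longest transcript and 4 without length. The order of the 8 genes did not change under any of these lengths. Coding length moved the level of S100a9 to 80392, of S100a6 to 2903, of S100a10 to 117 and of S100a13 to 39.4 units, each by over 1.5 times. Of 17 ratios between genes or lists given above, 16 moved by over 1.5 times under at least 1 of the other lengths or without length, and 1, S100a11 over Anxa1, changed direction, to 0.653 without length. Length from RefSeq proteins was not run, as no protein table was used here. No paired analysis was possible because values of single samples were not used here, and for the same reason the count test, its other normalization and filter, and the fits without each replicate were not run. Precision cannot be stated for any level, and the annotated lengths are not those of the transcripts present in these cells.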
